A study of Saccharomyces cerevisiae with 10 samples.

Results

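The strains described here are yeast deletion mutants that each lack 1 protein of the large subunit of the cytosolic ribosome. They were chosen by name, as every strain whose annotated symbol is RPL with a number, with or without a final A or B, or RPP1A, RPP1B, RPP2A or RPP2B. Of 74 such genes in the array annotation, 62 were measured, out of 4611 deletion strains in all. Of the 4611, 4147 have an annotated gene, and the others are barcode positions without one, counted here as strains. These 62 hold 25 complete paralog pairs (50 strains), 9 strains whose partner was not measured and 3 genes with no A or B in the symbol (RPL29, RPL38 and RPL39). The 12 annotated and not measured were RPL3, RPL5, RPL6A, RPL10, RPL14A, RPL15A, RPL17A, RPL25, RPL28, RPL30, RPL32 and RPL33A.

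The study grew a pool of viable haploid deletion strains of Saccharomyces cerevisiae through hydrogen peroxide and followed each strain by its pair of DNA barcodes on 2-colour arrays. On 4 arrays a culture given the high dose alone (acute, 0.4 mM for 1 h) was compared with its untreated portion. On 6 arrays a portion first given 0.1 mM for 45 min and then the same high dose (adapted) was compared with a portion given a sham pretreatment and the high dose (acute). All portions then grew for 5 h in fresh medium, so survival of the dose and growth after it cannot be told apart. Each array came from its own aliquot of the pool. Each gene is represented by 1 haploid strain, a strain of a pair keeps the other copy of its gene, and only deletions that the haploid tolerates are in the pool.

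The large subunit joins amino acids at its peptidyl transferase centre, releases the chain through an exit tunnel, and recruits elongation factors with a protruding stalk of acidic P proteins. Most of its proteins in budding yeast are encoded by a pair of genes left from an ancient duplication of the genome, named A and B. In most pairs the products are identical or nearly so. Deletion of one copy lowers the supply of the protein by an amount that depends on how much the remaining copy is expressed, and many such strains are known for slow growth and a shortage of large subunits.

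All values are log ratios of barcode signal. A value above 0 marks a strain more abundant in the acute than in the untreated pool, or more abundant with pretreatment than with a sham. No source used here states the log base, and natural logs were assumed. With another base the log ratios and their standard errors (SE) and standard deviations (SD) would be rescaled, whereas p-values would not move. The direction, treated over reference, is the likely one, from the dyes in the labels and from the order of strains in the study's own table. The Cy5 dye marked the acute portion on the acute arrays and the pretreated portion on the adapted ones, without a swap, so an effect of dye cannot be told apart from one of treatment.

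The large subunit strains as a group lay above the other strains after the acute dose and below them when adapted was compared with acute. Their median was 0.21 in acute over untreated, with 46 above 0 and 16 below (25.8%, against 54.8% of all strains), whereas the median of all strains was −0.01. Their median was −0.23 in adapted over acute, with 43 below 0 (69.4%, against 54.5% of all strains) and 19 above, whereas the median of all strains was −0.01. Means ran from −0.68 to 0.70 in the acute comparison and from −0.65 to 0.23 in the adapted one.

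**Figure D1:**
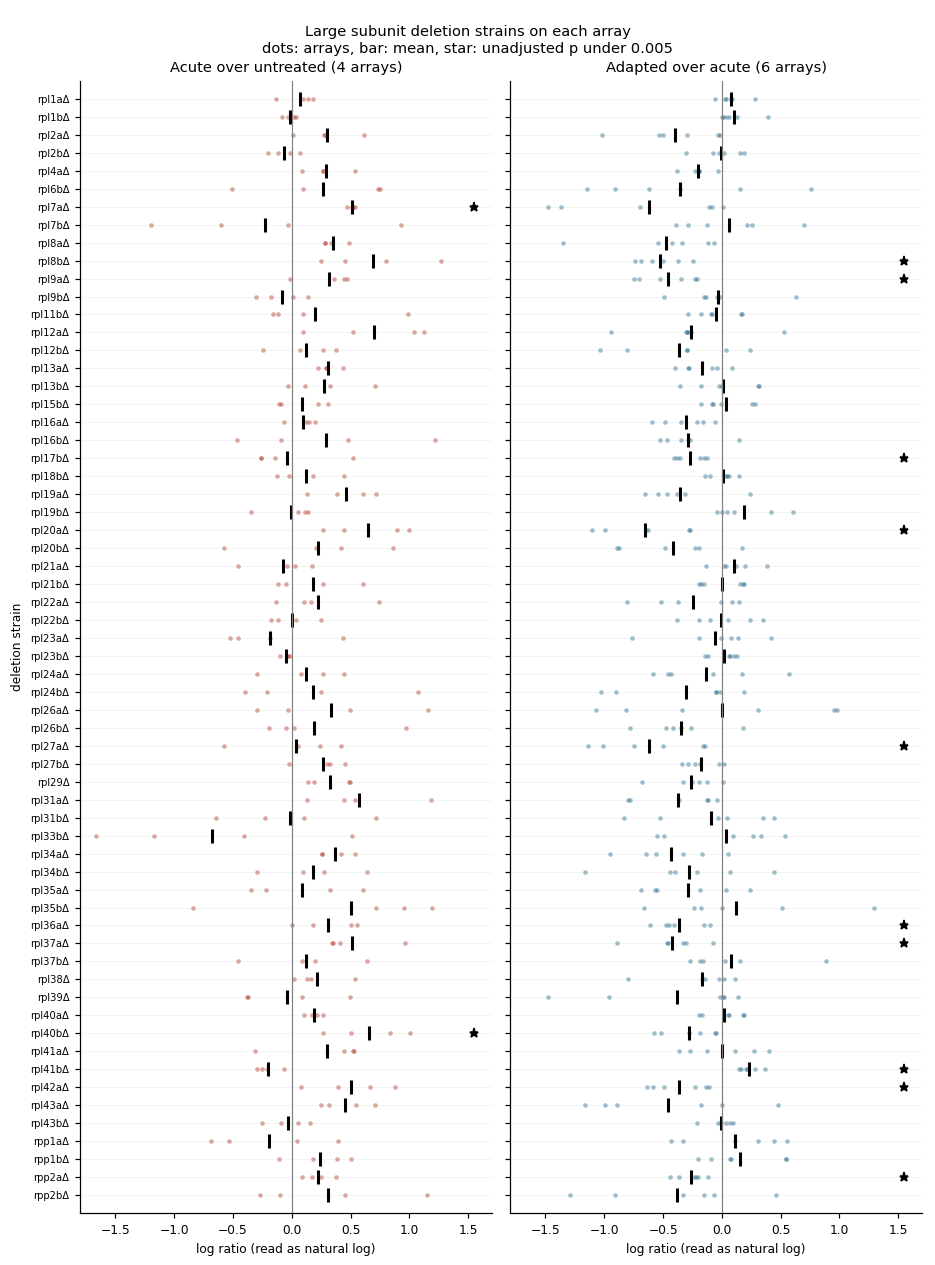
Log ratio of each of the 62 large subunit deletion strains (rows) in acute over untreated (left, 4 arrays) and adapted over acute (right, 6 arrays). Dots are arrays, black bars are means and stars mark strains past the unadjusted threshold of 0.005. Most means lie right of 0 on the left (46 of 62) and left of 0 on the right (43 of 62).

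The shift of the group was present on every array. The medians over the 62 strains were 0.10, 0.17, 0.33 and 0.24 on acute replicates 1 to 4, where the median of all strains was −0.01 after normalization. On adapted replicates 1 to 6 the medians were −0.12, −0.07, −0.15, −0.14, −0.28 and −0.22, against −0.01 for all strains. The number of strains above 0 was 41 to 47 of 62 on the acute arrays, and the number below 0 was 37 to 48 on the adapted arrays. The small subunit strains, with symbols RPS and a number, lay on the same side of 0 on all 10 arrays. Their medians were 0.23 and −0.15 over 44 strains.

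**Figure D2:**
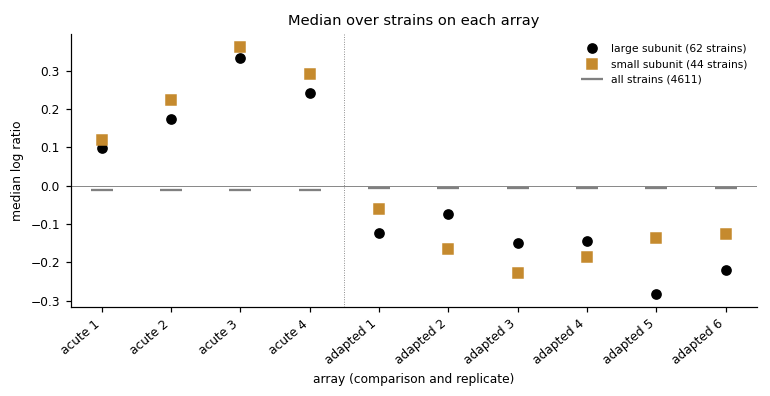
Median log ratio on each array (horizontal axis) of the large subunit strains (circles), the small subunit strains (squares) and all strains (dashes). Both groups of ribosomal strains are above 0 on the 4 acute arrays and below 0 on the 6 adapted arrays. The median of all strains is −0.01 on each array, and quantile normalization makes it equal among the arrays of a comparison.

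Individual strains were tested with limma against 0, at the unadjusted p of 0.005 that the methods of the study set. In acute over untreated, 2 of the 62 rose (3.23%), where 0.933% of all strains did. Neither passed after Benjamini-Hochberg adjustment over all strains. No large subunit strain fell, where 2.67% of all strains fell. At an unadjusted p of 0.05, 20 strains were higher (32.3%, against 5.75% of all strains) and 0 were lower (6.92% of all strains), and limma without moderation of the spread also called 0 lower at 0.005.

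The strains that rose in the acute comparison were rpl7aΔ and rpl40bΔ. The RPL7A gene (YGL076C) encodes a subunit protein that also takes part in processing of the ribosomal RNA precursor. The rpl7aΔ strain had 0.51, 0.52, 0.54 and 0.47 on acute replicates 1 to 4, a mean of 0.51 (SE 0.07, adjusted p = 0.0782, limma). Its arrays were nearly equal once the barcodes were averaged, although its first barcode was below 0 on 1 of the 4. RPL40B (YKR094C) encodes ubiquitin fused to a ribosomal protein that joins the subunit late, in the cytoplasm. The rpl40bΔ strain had 0.27, 0.50, 1.01 and 0.83, a mean of 0.65 (SE 0.14, adjusted p = 0.136, limma). Every array was above 0 and the highest was far above the lowest. The call of rpl7aΔ was lost without acute replicate 2 and that of rpl40bΔ without replicate 2, 3 or 4, with means of 0.43 to 0.57 and 0.56 to 0.81 over the left-out arrays. The call of rpl7aΔ was also lost from either set of barcodes alone and with 1 spread shared by all strains, and that of rpl40bΔ from the first barcodes alone and without moderation of the spread.

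The lowest acute value of the group belonged to rpl33bΔ, whose partner RPL33A was not measured. It had −0.41, −1.66, 0.51 and −1.17, a mean of −0.68 (SE 0.36, adjusted p = 0.581, limma). Its arrays fell on both sides of 0. It was singled out after its values were seen. The highest acute mean, 0.70 (SE 0.19, adjusted p = 0.21, limma), was that of rpl12aΔ, described with the stalk.

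In adapted over acute, 9 of the 62 strains fell (14.5%), where 1.52% of all strains did. They were rpl8bΔ, rpl9aΔ, rpl17bΔ, rpl20aΔ, rpl27aΔ, rpl36aΔ, rpl37aΔ, rpl42aΔ and rpp2aΔ. The rpl41bΔ strain alone rose (1.61%, against 1.26% of all strains). None passed after adjustment over all strains. At an unadjusted p of 0.05, 23 strains were lower (37.1%, against 6.38% of all strains) and 1 was higher (4.47% of all strains).

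The largest decrease was that of rpl20aΔ. RPL20A (YMR242C) encodes a ribosomal protein that has no counterpart in bacteria. Over the 6 adapted arrays rpl20aΔ ran from −1.11 to −0.27 with a median of −0.64, a mean of −0.65 (SE 0.12, adjusted p = 0.0879, limma). All arrays were below 0. On the acute arrays the strain had 0.27, 0.44, 0.89 and 1.00, a mean of 0.65 (SE 0.15, adjusted p = 0.154, limma), all above 0 and short of the threshold.

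On the adapted arrays rpl8bΔ and rpl9aΔ varied less than rpl20aΔ, with an SD of 0.19 and 0.23 against 0.35, whereas on the acute arrays rpl8bΔ varied more (0.45 against 0.35). RPL8B (YLL045C) encodes a protein bound to precursor ribosomal RNA early in subunit assembly. The rpl8bΔ strain ran from −0.74 to −0.25 on the adapted arrays with a median of −0.55, a mean of −0.52 (SE 0.08, adjusted p = 0.0761, limma). On the acute arrays it had 0.25, 0.80, 0.45 and 1.27, all above 0, with a mean of 0.69 (SE 0.18). RPL9A (YGL147C) encodes a protein near the base of the stalk. The rpl9aΔ strain ran from −0.74 to −0.21 with a median of −0.43, a mean of −0.46 (SE 0.09, adjusted p = 0.1, limma). On the acute arrays it had −0.02, 0.44, 0.47 and 0.36, with only replicate 1 not above 0. The calls of rpl8bΔ, rpl9aΔ and rpl20aΔ held without each adapted array in turn, and that of rpl9aΔ in all 12 alternatives tried. The call of rpl8bΔ was lost from the first barcodes alone and that of rpl20aΔ without moderation of the spread.

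The rpl27aΔ strain fell about as far as rpl20aΔ in the adapted comparison, and its acute arrays lay on both sides of 0. RPL27A (YHR010W) encodes another protein without a bacterial counterpart. The strain ran from −1.14 to −0.15 on the adapted arrays with a median of −0.62, a mean of −0.62 (SE 0.15, adjusted p = 0.149, limma). Its acute values were −0.57, 0.42, 0.05 and 0.24, with a mean of 0.03 (SE 0.18). The call was lost without adapted replicate 3, 4, 5 or 6, with means of −0.68 to −0.53 over the left-out arrays and a highest p of 0.0116 by limma.

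Another 3 of the strains that fell, rpl36aΔ, rpl37aΔ and rpl42aΔ, were each above 0 on all 4 acute arrays. RPL37A (YLR185W) encodes a small protein with a zinc finger that lies deep in the ribosomal RNA. The rpl37aΔ strain ran from −0.89 to −0.07 with a median of −0.40 on the adapted arrays, a mean of −0.42 (SE 0.10, adjusted p = 0.155, limma). It had 0.41, 0.35, 0.96 and 0.34 on the acute arrays, with replicate 3 far above the other three. RPL42A (YNL162W) encodes a protein at the exit site of transfer RNA, where the antibiotic cycloheximide binds. The rpl42aΔ strain had a mean of −0.36 (SE 0.09, adjusted p = 0.165, limma), with adapted arrays from −0.64 to −0.11 and a median of −0.36. Its acute values were 0.08, 0.40, 0.88 and 0.67. The rpl36aΔ strain (RPL36A, YMR194W) had a mean of −0.36 (SE 0.08, adjusted p = 0.139, limma), with adapted arrays from −0.61 to −0.10 and a median of −0.43. Its acute values were 0.00, 0.18, 0.55 and 0.50, with replicate 1 at the edge of 0. The calls of rpl36aΔ and rpl42aΔ were lost without adapted replicate 3, 4, 5 or 6 and that of rpl37aΔ without replicate 2, 4, 5 or 6, and the highest p by limma was 0.00892, 0.0161 and 0.0119 for rpl36aΔ, rpl42aΔ and rpl37aΔ.

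The remaining calls were small and rested on even arrays. RPL17B (YJL177W) encodes a protein that lines the exit tunnel. The rpl17bΔ strain ran from −0.41 to −0.13 on the adapted arrays with a median of −0.27, a mean of −0.27 (SE 0.07, adjusted p = 0.163, limma). RPP2A (YOL039W) encodes an acidic P protein of the stalk. The rpp2aΔ strain ran from −0.44 to −0.12 with a median of −0.23, a mean of −0.26 (SE 0.07, adjusted p = 0.163, limma). Both stayed below 0 on every adapted array. RPL41B (YDL133C-A) encodes a very short peptide at the bridge between the subunits. The rpl41bΔ strain ran from 0.15 to 0.37 with a median of 0.21, a mean of 0.23 (SE 0.06, adjusted p = 0.179, limma). It was below 0 on all 4 acute arrays, at −0.21, −0.25, −0.30 and −0.06, so its signs were opposite to those of most of the group. The calls of rpp2aΔ and rpl41bΔ were lost without any 1 of the 6 adapted arrays and that of rpl17bΔ without replicate 1, 2, 4, 5 or 6, with a highest p of 0.0125, 0.0174 and 0.0161 by limma for rpp2aΔ, rpl41bΔ and rpl17bΔ. From either set of barcodes alone the calls of rpl17bΔ, rpl27aΔ, rpp2aΔ and rpl41bΔ were lost, that of rpl36aΔ was lost from the first alone, and those of rpl37aΔ and rpl42aΔ from the second alone.

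Sign agreement over arrays was more frequent in the group than in the pool. Of the 62 strains, 20 were above 0 on all 4 acute arrays (32.3%, against 9.17% of all strains) and 15 were below 0 on all 6 adapted arrays (24.2%, against 3.93%). The reverse signs held on all 4 acute arrays in 2 strains (3.23%, against 10.8% of all strains), and on all 6 adapted arrays in 2 strains (3.23%, against 3.43%). In 11 strains both held (17.7%, against 1.78% of all strains and 13.6% of the small subunit strains). These were rpl2aΔ, rpl4aΔ, rpl8aΔ, rpl8bΔ, rpl20aΔ, rpl31aΔ, rpl36aΔ, rpl37aΔ, rpl40bΔ, rpl42aΔ and rpp2aΔ. RPL8 was the only pair with both strains among them. The acute and adapted arrays came from different cultures.

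The acute and adapted means of the 62 strains ran in opposite directions. Pearson's r was −0.57 and Spearman's rho −0.57 over the 62 strains, which share the same arrays. Over the 44 small subunit strains these were −0.59 and −0.64, and over all 4611 strains −0.44 and −0.38. Of the 62 strains, 35 (56.5%) had an acute mean above 0 and an adapted mean below 0, against 30.8% of all strains. Another 8 had the reverse (12.9%, against 31.2%), 11 were above 0 in both and 8 below 0 in both. Of the 44 small subunit strains, 31 (70.5%) had an acute mean above 0 and an adapted mean below 0, and 4 (9.09%) the reverse.

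**Figure D3:**
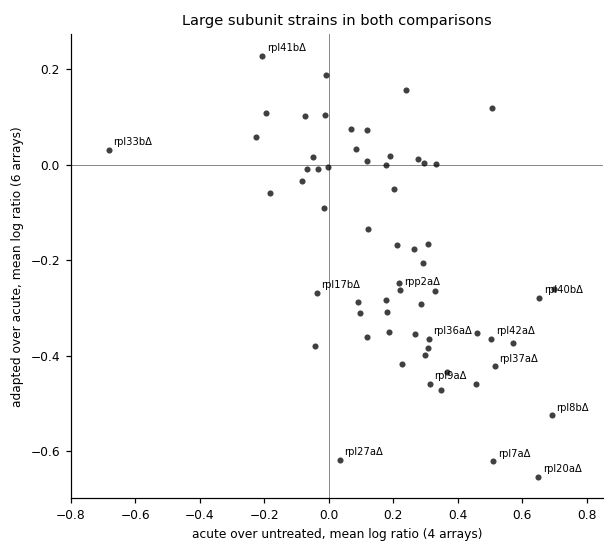
Mean log ratio of each of the 62 large subunit strains in acute over untreated (horizontal axis, 4 arrays) and adapted over acute (vertical axis, 6 arrays), with names for rpl33bΔ and the strains past the unadjusted threshold of 0.005 in either comparison. The lower right quadrant holds 35 strains and the upper left holds 8, among them rpl41bΔ and rpl33bΔ.

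By place in the subunit, the stalk strains were mixed. RPP1A, RPP1B, RPP2A and RPP2B encode the acidic P proteins that recruit the GTPase factors of translation, and RPL12A and RPL12B encode the protein at the base of the stalk. The 6 strains had a median of 0.23 in the acute comparison and −0.26 in the adapted one, with 1 call, that of rpp2aΔ. Of all strains, 1.52% were likewise called lower in the adapted comparison. The rpl12aΔ strain had 0.10, 0.52, 1.04 and 1.13 on the acute arrays, all above 0 with replicate 1 lowest, and −0.94 to 0.53 with a median of −0.29 on the adapted arrays. The rpl12bΔ strain had −0.24, 0.37, 0.27 and 0.07 and then −1.03 to 0.24 with a median of −0.30. Both crossed 0 on the adapted arrays.

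Of the P protein strains, rpp2aΔ had 0.09, 0.17, 0.38 and 0.25 on the acute arrays, all above 0. The rpp2bΔ strain had 0.45, −0.27, 1.15 and −0.10 on the acute arrays and −1.30 to 0.46 with a median of −0.24 on the adapted ones. The rpp1aΔ strain had 0.40, −0.53, 0.04 and −0.68, and −0.43 to 0.56 with a median of 0.21. The spread over arrays of rpp1aΔ and rpp2bΔ exceeded their means in both comparisons. The rpp1bΔ strain had −0.11, 0.18, 0.50 and 0.38, and −0.20 to 0.54 with a median of 0.07. It was above 0 in both means, at 0.24 (SE 0.12) and 0.16 (SE 0.12), and neither passed.

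Strains of the L1 stalk, the mobile arm that guides spent transfer RNA out of the ribosome, lay near 0. The rpl1aΔ strain had means of 0.07 (SE 0.09) and 0.07 (SE 0.07), and rpl1bΔ had −0.01 (SE 0.08) and 0.10 (SE 0.07). Their arrays stayed between −0.13 and 0.39 in both comparisons.

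At the exit tunnel and its rim, 12 strains had a median of 0.20 in the acute comparison and −0.24 in the adapted one. In these comparisons 8 were above 0 and 9 below 0 respectively, with 1 call, that of rpl17bΔ (lower in the adapted one, as were 1.52% of all strains). RPL31A encodes a rim protein that holds a chaperone complex of the nascent chain, and rpl31aΔ had 0.53, 0.45, 0.13 and 1.18 on the acute arrays and −0.80 to −0.04 with a median of −0.25 on the adapted arrays. All its arrays lay on the side of 0 of most of the group, while rpl31bΔ had −0.23, 0.72, −0.65 and 0.11 and then −0.83 to 0.44 with a median of 0.01. RPL26A encodes another protein near the tunnel exit, and rpl26aΔ had −0.03, 0.50, −0.29 and 1.16 and then −1.07 to 0.98 with a median of −0.02. Its SD of 0.88 over the adapted arrays exceeded its mean of 0.00 by far. The rpl26bΔ strain had −0.05, 0.97, 0.02 and −0.20, with replicate 2 far above the others, and −0.78 to 0.18 with a median of −0.38.

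RPL35A and RPL35B encode a rim protein to which the signal recognition particle binds. The rpl35bΔ strain had −0.84, 0.72, 1.19 and 0.96 on the acute arrays and −0.66 to 1.29 with a median of −0.09 on the adapted ones. The rpl35aΔ strain had −0.35, −0.22, 0.60 and 0.33 and then −0.69 to 0.24 with a median of −0.37. Neither strain kept 1 sign over the arrays of either comparison.

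The bridge strains (RPL19, RPL24 and RPL41, whose proteins reach across to the small subunit) had medians of 0.15 and −0.07 over 6 strains. Their 1 call was that of rpl41bΔ, higher in the adapted comparison, as were 1.26% of all strains. RPL19A and RPL19B encode a protein with a long helix that reaches from the tunnel rim to the small subunit. The rpl19aΔ strain had 0.13, 0.38, 0.60 and 0.72 on the acute arrays and −0.65 to 0.24 with a median of −0.43 on the adapted ones. The rpl19bΔ strain had −0.34, 0.05, 0.12 and 0.14 and then −0.04 to 0.60 with a median of 0.07. The A strain lay above the B strain on each acute array and below it on 5 of 6 adapted arrays. The rpl41aΔ strain had 0.52, 0.44, −0.31 and 0.53, with replicate 3 alone below 0, and −0.36 to 0.40 with a median of −0.01.

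Of the 3 genes with no paralog in the symbol, none passed the threshold, by limma, in any comparison. RPL29 encodes a small basic protein needed in yeast for efficient joining of the subunits. The rpl29Δ strain had 0.19, 0.14, 0.49 and 0.49 on the acute arrays and −0.68 to 0.01 with a median of −0.22 on the adapted arrays, means of 0.33 (SE 0.10, adjusted p = 0.261, limma) and −0.26 (SE 0.09, adjusted p = 0.321, limma). It lay above 0 on every acute array and below 0 on 5 adapted arrays. The rpl38Δ strain had 0.13, 0.16, 0.53 and 0.02 and then −0.80 to 0.12 with a median of −0.08. RPL39 encodes a very small protein that lines the exit tunnel, and rpl39Δ had 0.08, −0.37, −0.38 and 0.50 and then −1.48 to 0.14 with a median of 0.00. Its mean of −0.38 (SE 0.22) in the adapted comparison rested on arrays far apart.

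The medians of the A strains lay further from 0 than those of the B strains, with exceptions among the 25 pairs. The A mean was further from 0 than the B mean in 16 pairs in each comparison. The letters A and B are part of the gene names, and letters given at random would split the pairs about evenly. Whether the counts given here depart from an even split was not tested. The 25 A strains had a median of 0.30 in the acute comparison and −0.29 in the adapted one, and the 25 B strains 0.18 and −0.01. The A mean was above the B mean in 15 pairs in the acute comparison and below it in 18 pairs in the adapted one. Of the calls in the adapted comparison, 5 of the 9 lower ones were A strains of a pair, 1 was a B strain of a pair (rpl8bΔ) and 3 had no measured partner (rpl17bΔ, rpl36aΔ and rpl42aΔ). Both copies were above 0 in 13 pairs in the acute comparison and both were below 0 in 13 pairs in the adapted one.

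**Figure D4:**
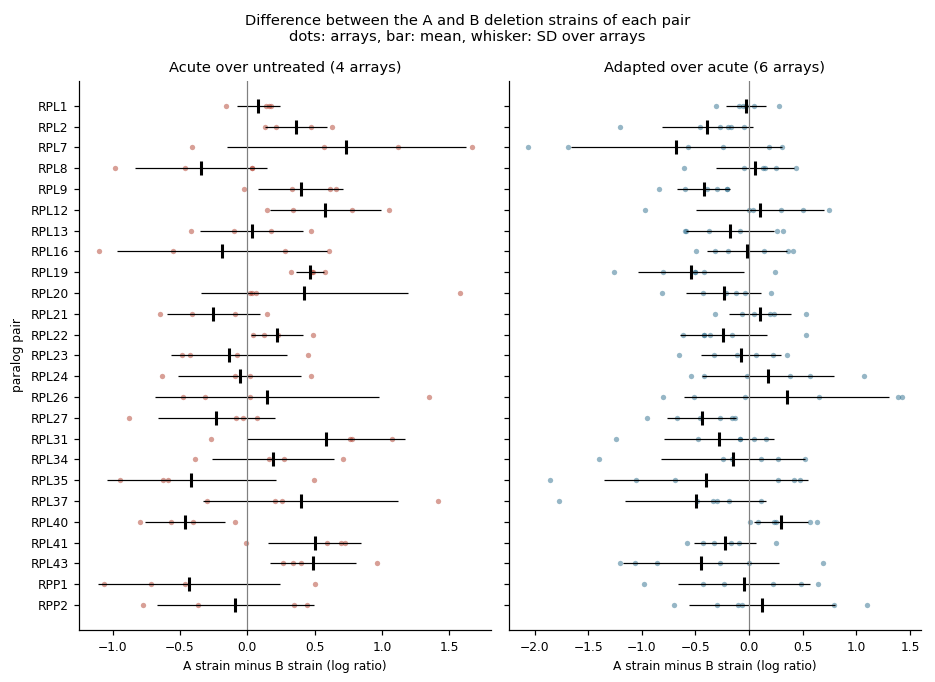
Difference in log ratio between the A and the B deletion strain of each of 25 pairs (rows), in acute over untreated (left, 4 arrays) and adapted over acute (right, 6 arrays). Dots are arrays, bars are means and whiskers the SD over arrays. RPL2, RPL12, RPL19, RPL20, RPL22 and RPL43 lie above 0 on all 4 acute arrays, and RPL2, RPL9 and RPL27 lie below 0 on all 6 adapted arrays.

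The difference between A and B strains was taken within each array and tested by an exact sign-flip permutation test, two-sided. With 4 acute arrays this test cannot give a p below 0.125. A pair with no difference would keep 1 sign on 4 independent arrays with that same probability. The sign was the same on all 4 arrays in 7 pairs, with A higher in 6 (RPL2, RPL12, RPL19, RPL20, RPL22 and RPL43) and B higher in RPL40. The most even was RPL19, with differences of 0.48, 0.33, 0.49 and 0.58 and a mean of 0.47 (SD 0.10). The largest mean difference was that of RPL7, 0.74 (SD 0.89), with −0.41, 1.12, 0.57 and 1.67. The rpl7bΔ strain had 0.93, −0.60, −0.03 and −1.20, far apart, whereas rpl7aΔ was nearly constant as the average of its barcodes. RPL31 differed by 0.59 (SD 0.59), with 3 arrays above 0. RPL12 differed by 0.58 (SD 0.41), with 0.34, 0.15, 0.77 and 1.05. RPL41 differed by 0.50 (SD 0.35), with 3 arrays above 0. Of RPL7, RPL31, RPL12 and RPL41, the largest in mean difference, RPL12 alone kept 1 sign on every acute array. Leaving out acute replicate 4 brought RPL7 to 0.42 and leaving out replicate 1 brought it to 1.20, and RPL31 was 1.13 from the first barcodes and 0.06 from the second. In RPL43, which encodes a zinc-binding protein, rpl43aΔ had 0.32, 0.71, 0.55 and 0.25 and rpl43bΔ had 0.05, −0.25, 0.15 and −0.09. Their ranges over the 4 arrays did not overlap, and the mean difference was 0.49 (SD 0.32).

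In adapted over acute, 4 pairs had 1 sign on all 6 arrays, which gives the smallest p that this test allows, 0.03125 (exact sign-flip permutation test, two-sided). Adjusted over the 25 pairs it was 0.195 for each. They were RPL2, RPL9, RPL27 and RPL40. RPL2, RPL9 and RPL40 as pairs were singled out after their values were seen. In RPL9 the A strain was below the B strain by a mean of −0.42 (SD 0.25), with differences from −0.84 to −0.21. The rpl9bΔ strain itself ran from −0.49 to 0.63 on the adapted arrays with a median of −0.09, near 0 on most of them. In RPL27 the mean difference was −0.44 (SD 0.32), from −0.95 to −0.13. The rpl27bΔ strain had 0.30, 0.45, −0.02 and 0.32 on the acute arrays and −0.34 to 0.02 with a median of −0.21 on the adapted ones, a smaller shift than that of rpl27aΔ. In RPL2, which encodes a protein next to the peptidyl transferase centre, the mean difference was −0.39 (SD 0.42), from −1.21 to −0.04. The rpl2aΔ strain had 0.01, 0.27, 0.29 and 0.62 and then −1.02 to −0.01 with a median of −0.40. The rpl2bΔ strain had −0.12, −0.20, 0.07 and −0.01 and then −0.31 to 0.19 with a median of 0.00. Its means of −0.07 (SE 0.09) and −0.01 (SE 0.08) were close to 0 in both comparisons. In RPL40 the order was the other way round, with the B strain below the A strain and a mean A minus B difference of 0.30 (SD 0.25), from 0.01 to 0.64. The rpl40aΔ strain had 0.18, 0.10, 0.21 and 0.27 on the acute arrays and −0.19 to 0.19 on the adapted ones, and rpl40bΔ ran from −0.58 to −0.05.

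Pairs with larger mean differences in the adapted comparison were less even. RPL7 differed by −0.68 (SD 0.99), and 2 of its 6 arrays were above 0. The rpl7aΔ strain ran from −1.48 to 0.01 with a median of −0.40, and rpl7bΔ from −0.39 to 0.70 with a median of 0.04. RPL19 differed by −0.54 (SD 0.49), RPL37 by −0.50 (SD 0.66) and RPL43 by −0.45 (SD 0.73), with exact permutation p of 0.0625, 0.0625 and 0.188. Without adapted replicate 3, on which the difference was −1.78, RPL37 differed by −0.24, and without replicate 5 RPL7 differed by −0.43. RPL43 ran from −0.72 without adapted replicate 6 to −0.31 without replicate 3, and was −0.22 from the first barcodes and −0.69 from the second. In RPL37 the B strain had 0.20, 0.09, −0.46 and 0.64 on the acute arrays and −0.27 to 0.88 with a median of −0.07 on the adapted ones. In RPL43 the A strain ran from −1.17 to 0.48 with a median of −0.53 and the B strain from −0.21 to 0.09 with a median of 0.01. The rpl43aΔ spread was several times that of rpl43bΔ.

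No pair passed an adjusted p of 0.05 over the 25 pairs in any comparison, by the exact permutation tests. In several pairs the mean difference was itself close to 0 in 1 comparison. RPL8 had a mean difference of 0.05 (SD 0.36) in the adapted comparison, and both of its strains were below 0 on all 6 arrays. The rpl8aΔ strain had 0.28, 0.33, 0.49 and 0.28 on the acute arrays and −1.35 to −0.06 with a median of −0.38 on the adapted ones. Its adapted mean of −0.47 (SE 0.16, adjusted p = 0.292, limma) was close to that of rpl8bΔ and its SD was 0.47 against 0.19. RPL16 differed by −0.02 (SD 0.37), with both means below 0 at −0.31 and −0.29. The smallest absolute mean differences in the acute comparison were those of RPL13, 0.03 (SD 0.38), and RPL24, −0.06 (SD 0.46). These SDs were about as large as the mean differences of the pairs named above.

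The adaptive contrast of the study sets the loss of a strain in the acute dose against what it regains with pretreatment. It was computed as minus the adapted mean minus the acute mean, so that opposite and equal shifts give 0. The median of the 62 strains was 0.01, against 0.02 for all strains, with 34 above 0 (54.8%, against 56.8% of all strains) and 28 below. No strain of the group passed the unadjusted 0.005 by limma, where 1.54% of all strains were higher and 0.173% lower. At an unadjusted 0.05 there was 1 in each direction (1.61%, against 4.01% of all strains higher and 1.54% lower), rpl27aΔ at 0.58 (SE 0.25, adjusted p = 0.824, limma) and rpl40bΔ at −0.38 (SE 0.17, adjusted p = 0.874, limma). For rpl20aΔ the contrast was 0.00, since 0.65 in the acute comparison was set against −0.65 in the adapted one. Fits without moderation of the spread also called 0 strains in either direction, and 1 spread shared by all strains called 1 in each.

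Between paralogs, the contrast differed past an exact permutation p of 0.05 in RPL27 alone, by 0.67 (p = 0.00952 over the 210 ways of assigning the 10 arrays to sets of 4 and 6). Adjusted over the 25 pairs this was 0.238. The largest difference was 0.82 in RPL35 (exact permutation p = 0.162), ahead of −0.68 in RPL12 (p = 0.081, exact permutation), then RPL27 and −0.50 in RPL26 (p = 0.414, exact permutation). RPL26 was at −0.09 without acute replicate 4, and at −0.05 from the first barcodes and −1.21 from the second. RPL35 was at 1.72 from the first barcodes and 0.07 from the second, and at 0.53 without adapted replicate 1. RPL27 was at 0.81 from the first barcodes and 0.58 from the second, and at 0.46 to 0.79 without single arrays. RPL35, RPL12 and RPL26 are each a pair in which at least 1 strain varied widely over arrays. In RPL27 the A strain varied nearly as much as rpl12aΔ. The SD of rpl27aΔ was 0.43 over the acute and 0.42 over the adapted arrays, against 0.48 and 0.47 for rpl12aΔ.

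Other genes of the same pathway shifted to different degrees. Large subunit assembly factors, which fold, process and export the precursor particle, had medians of 0.28 and −0.32 over 23 strains, with 3 called higher in the acute comparison (0.933% of all strains were) and 3 called lower in the adapted one (1.52% of all strains). Among them tma23Δ, which lacks a nucleolar protein, had a mean of 0.67 (SE 0.10, adjusted p = 0.0793, limma) and then −0.61 (SE 0.08, adjusted p = 0.0761, limma). The dbp3Δ strain, which lacks an RNA helicase, had 0.47 (SE 0.09, adjusted p = 0.108, limma) and −0.42 (SE 0.09, adjusted p = 0.123, limma). The other calls were dbp7Δ at 0.60 in the acute comparison and nop12Δ at −0.46 in the adapted one. The 44 small subunit strains had 5 calls higher in the acute and 8 lower in the adapted comparison, to be set against the same 0.933% and 1.52% of all strains, with rps27bΔ highest of the named ones at 0.86 (SE 0.13) and rps24aΔ lowest at −0.66 (SE 0.15).

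Strains of the 6 methyltransferases that modify large subunit proteins had medians of −0.02 and −0.01, with acute means from −0.40 to 0.09, adapted means from −0.16 to 0.09 and 0 calls by limma. Of the 6 regulators of ribosomal protein genes, sfp1Δ at −0.88 (SE 0.15, adjusted p = 0.0761, limma) and hmo1Δ at −0.70 (SE 0.15, adjusted p = 0.125, limma) fell in the adapted comparison, where 1.52% of all strains did. Sfp1 is a transcription factor and Hmo1 a chromatin protein of ribosomal genes. The median of the regulators was 0.13 in the acute and −0.03 in the adapted comparison. The 15 strains of the Gcn2 pathway and ribosome surveillance had medians of −0.04 and −0.01. Of these asc1Δ, which lacks a protein of the small subunit, was called higher in the acute comparison at 0.45 (SE 0.08), where 0.933% of all strains were.

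The precision of each strain's value was limited by its barcodes. Over all strains the correlation between the barcodes of a strain on 1 array was 0.06 to 0.22. Over the 62 it ran from −0.33 on acute replicate 1 to 0.53 on acute replicate 3. In the group, the sign of the mean agreed between barcodes in 42 of 62 strains (67.7%, against 59.8% of all strains with both tags) in the acute comparison and in 41 (66.1%, against 58.4%) in the adapted one. Of these, 36 were above 0 and 6 below in the acute comparison, and 6 above and 35 below in the adapted one. A median away from 0 by itself makes equal signs more frequent. The barcode means had an r of 0.27 in the group and 0.47 in all strains in the acute comparison. In the adapted one r was 0.44 and 0.34. The median SD over arrays was 0.31 in the group and 0.22 in all strains in the acute comparison, and 0.31 and 0.23 in the adapted one. The median of the group was 0.19 and 0.17 from the first and the second barcode in the acute comparison, and −0.22 and −0.18 in the adapted one. In rpl20aΔ the barcodes gave 0.73 and 0.68, then −0.79 and −0.60, and in rpl8bΔ 0.56 and 0.91, then −0.45 and −0.72. In rpl31aΔ, by contrast, they gave 1.01 and 0.05, then −0.74 and −0.01, and in rpl40aΔ 0.47 and −0.06, then −0.19 and 0.22. The shift of rpl31aΔ was thus measured by its first barcode alone.

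Arrays of 1 comparison did not always run together. Over all barcodes as single values, correlations between adapted arrays ran from −0.22 to 0.51 and between acute arrays from −0.09 to 0.51. Over the 62 strains, adapted replicates 2 and 4 had an r of −0.36, and adapted replicates 1 and 2 an r of 0.59. In the first barcodes alone, over all strains, adapted replicates 2 and 4 had an r of −0.45. The part of this disagreement in any strain's value was not tested. Only RPL13A and RPP1A of the 62 genes are direct neighbours on a chromosome, so no other deletion adjoins another of the 62. Neighbours among the 12 annotated genes that were not measured were not looked for.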

How the data were processed

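Genomic DNA from pools of deletion strains was hybridized to 2-colour barcode arrays, 4 for acute over untreated and 6 for adapted over acute. The authors quantified the arrays, corrected them by median and loess and deposited log ratios per spot, read here as natural log values. No source used here states the base. Of 22575 spots, 16850 had values on all arrays. Spots with IDs above 5400 were turned in sign, barcodes were averaged per strain, and quantile normalization was applied among the arrays of a comparison, giving 4611 strains (4478 with both tags). Spot intensities were not used, so signal over background is unknown, and the number of arrays limits the precision.

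Each strain was tested by the moderated, two-sided test of limma 3.58.1 (R 4.3.3), with a threshold of unadjusted p 0.005 from the methods of the study and Benjamini-Hochberg adjustment over all strains. The contrast used all 10 arrays. A and B strains were compared within arrays by exact permutation tests, adjusted over the 25 pairs. Permutations ran in numpy 2.4.6, figures in matplotlib 3.10.9, and tables in pandas 2.3.3 (Python 3.11.15). The scripts were tested on simulated data. All 62 symbols matched RefSeq.

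The strains and gene lists were chosen with earlier results of these data known. Strains named are those past 0.005 in any comparison, both strains of the 4 pairs with the largest A minus B difference in each comparison, genes without a paralog in the symbol, the P proteins and, of other lists, up to 3 past the threshold per list and comparison. Other strains and pairs named were chosen after their values were seen. Alternatives were no quantile normalization, each tag set alone, strains with both tags only, no moderation, 1 shared spread, a replicate block and leaving out each array. No sequences were used here.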

Additional observations from a re-analysis of the deposited data

Results flagged for a closer look

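In 5 of 70 groups of arrays tested for 1 value far from the rest, a large subunit strain had such an array, where chance gives about 1 in 20. In rpl17bΔ, acute replicate 2 stood at 0.52 and the other acute arrays at −0.26 to −0.15. In rpl37aΔ, acute replicate 3 stood at 0.96 and the others at 0.34 to 0.41. In rpl41aΔ, acute replicate 3 stood at −0.31 and the others at 0.44 to 0.53. On the adapted arrays, rpl37bΔ had 0.88 on replicate 3 and −0.27 to 0.15 on the others, and rpl38Δ had −0.80 on replicate 5 and −0.17 to 0.12 on the others.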

How the results depend on the processing

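The group's medians moved by less than the spread over arrays without quantile normalization, from either tag set and without any single array. The median of the contrast, 0.01, changed sign among these, at −0.02 without quantile normalization, 0.06 from the first tags and −0.07 from the second. Without each array in turn they ran from 0.16 to 0.24 in the acute comparison, from −0.23 to −0.17 in the adapted one and from −0.04 to 0.06 in the contrast. Counts of called strains moved more. The 2 higher strains of the acute comparison were 4 without quantile normalization, 1 from the first tags, 4 from the second, 1 without moderation, 5 with 1 shared spread, 0 after Benjamini-Hochberg adjustment and 0 to 5 without single arrays, and the 0 lower strains were 1 with the shared spread. The 9 lower strains of the adapted comparison were 4 from the first tags, 4 without moderation, 14 with the shared spread, 0 after adjustment and 3 to 8 without single arrays (5 without replicate 4, 3 without replicate 5 and 3 without replicate 6). The 1 higher strain was 0 from either tag set, with the shared spread, after adjustment and without any 1 array (0 to 0). In the contrast the shared spread gave 1 lower and 1 higher strain, and leaving out single arrays gave 0 to 1 higher (1 without acute replicate 2). Over all strains, higher calls in the acute comparison went from 43 to 20 from the first tags, 21 without moderation and 81 with the shared spread, and lower calls in the adapted one from 70 to 32, 44 and 135.

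Of the paralog pairs, the 7 with 1 sign on all acute arrays were 8 to 12 without single arrays (12 without replicate 1, 11 without replicate 3). Apart from the renewed normalization, a pair with 1 sign on all acute arrays keeps it on any subset of them, so this count could hardly fall. Fewer arrays also keep 1 sign more easily by chance. The 4 pairs past 0.05 in the adapted comparison were 2 from the first tags, and 5 arrays cannot give such a p, so no array was left out there. The 1 pair in the contrast was 0 from either tag set and 1 to 2 without single arrays (2 without acute replicate 3 or adapted replicate 3). These alternatives hold fewer arrays or spots, and no cause of the changed counts was tested. Same-numbered acute and adapted arrays deviated from their group means with r of 0.34, −0.26, 0.17 and 0.24, so the numbers were not taken to pair cultures; with replicate number as a block the contrast called 0 lower and 0 higher large subunit strains, as without it, and 6 lower and 65 higher strains in all, against 8 and 71.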
